A study of Mus musculus with 6 samples.

Results

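Mitochondrially encoded RNAs are the transcripts made inside the mitochondrion from its own circular genome. They were taken by name, as every gene whose symbol starts with mt- in the deposited count and FPKM tables, and no measured value entered the choice. Of the 55376 genes in the tables, 37 are mitochondrially encoded: 13 mRNAs, 2 rRNAs and 22 tRNAs. All 37 have the same start, end and strand in the GENCODE M21 annotation of mm10. The 3 RNA classes are described separately.

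RNA immunoprecipitation sequencing (RIP-seq) recovers the RNA that comes down with an antibody, here an antibody to CPEB1, from lysates of freshly isolated muscle stem cells, also called satellite cells (fiSCs). The study holds 6 libraries in 3 groups of 2: RNA precipitated with anti-CPEB1 (CPEB1 IP), RNA precipitated with anti-IgG (IgG), and RNA of the lysate with the antibody given as None (input). All 3 groups came from C57BL/6 mice aged 3 months, from muscle cells sorted as CD31-, CD45-, Sca1- and Vcam1+, with libraries made by SMART-seq2, a method that primes on poly(A) and does not keep the strand. The study describes the libraries of a group as biological replicates from independent experiments, and the labels do not tie them to animals or cell pools, so p-values measure the spread between these libraries.

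CPEB1 binds short U-rich elements, the cytoplasmic polyadenylation elements (CPEs), in the 3′ UTRs of cytoplasmic mRNAs and changes their poly(A) tails and translation. Mitochondrial mRNAs are made as long precursors from both strands, cut out at the tRNAs that lie between them and given short poly(A) tails inside the organelle, and most have little or no 3′ UTR. Their 13 proteins are core subunits of complexes I, III, IV and V of oxidative phosphorylation. The rRNAs and tRNAs serve the mitochondrial ribosome. Comparing CPEB1 IP with IgG asks which of these RNAs came down with the CPEB1 antibody beyond the control antibody, and comparing each with input asks how a precipitate differs from the lysate.

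The sequences below are shown because the ends of the mRNAs bear on where a CPE could lie. They are the last 30 bases of 6 annotated mRNAs in GENCODE M21, 5′ to 3′, with the bases of the last codon in capitals:
mt-Nd1: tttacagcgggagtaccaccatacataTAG
mt-Co1: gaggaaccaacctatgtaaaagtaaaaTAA
mt-Nd5: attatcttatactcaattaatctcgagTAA
mt-Co3: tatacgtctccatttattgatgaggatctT
mt-Nd4: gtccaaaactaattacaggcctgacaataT
mt-Cytb: tcgaagacaaaatactaaaattatatccaT
In these gene models no base follows the last codon. mt-Co3, mt-Nd4 and mt-Cytb end in a single T of an unfinished stop codon, which is known to be completed by the poly(A) tail, and the other 10 mRNAs end in TAA or TAG.

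The CPE letters TTTTAT and TTTTAAT were searched on the RNA strand over each whole mRNA. Neither string lies within the other. TTTTAT was found in 7 of 13 mRNAs and TTTTAAT in 3 of 13. Among nuclear protein-coding transcripts cut to the same lengths from the 3′ end, TTTTAT was found in 20.9% for windows as short as mt-Atp8 to 64.9% for windows as long as mt-Nd5, with a mean of 43.5% over the 13 lengths, and TTTTAAT in 7.39% to 32.1%, with a mean of 18.6%. Examples, with the motif in capitals, are from the RNAs with the most counts and from mt-Nd6:
mt-Nd1 at 305: taaacctagggaTTTTATttattttagcaa
mt-Co1 at 489: aggtgcaattaaTTTTATtaccactattat
mt-Co1 at 1070: taaccggaattgTTTTATccaactcatccc
mt-Cytb at 270: agcctcaatattTTTTATttgcttattcct
mt-Nd6 at 489: gtttgcgggtatTTTTATtattatcgagat
Positions count from 1 at the first base of the mRNA, and each of these matches lies in coding sequence. The match in mt-Nd6, shown as the one nearest to a 3′ end, is followed by 25 bases, and the others by 470 to 1051. A match is only a match of letters.

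The 6 libraries had 1284716 to 4941653 counts on genes, with IgG shallowest. These made up 39.1% and 39.5% of the library total that the authors used for FPKM in IgG and between 69.5% and 79.8% in the other 4 libraries. Satellite cell markers (Pax7, Myf5, Vcam1 and 5 more, all 8 detected) summed to between 9550 and 11650 CPM (counts scaled to the same total of counts on genes) in each library. Markers of muscle fibre summed to 60.6 to 152 CPM, those of endothelial cells to 19.9 to 78.0 and those of blood cells to 14.8 to 80.2, each lowest in the input libraries, with Ptprc at 0 in 2 libraries and Cd3e at 0 in 1. Markers of fibro-adipogenic progenitors summed to 235 to 512 CPM, of pericytes and smooth muscle to 240 to 760, highest in input, and of Schwann cells to 23.2 to 71.4, lowest in input. Their part in any result below was not tested.

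Mitochondrially encoded RNAs took a small and similar share of the counts in each library. How reads that also match copies of mitochondrial sequence in nuclear chromosomes (described below) were counted is not stated. Shares of counts may thus differ from shares of RNA. They held 1.36% and 1.09% of counts on genes in CPEB1 IP, 1.71% and 1.78% in IgG against 1.43% and 1.66% in input. CPEB1 IP was thus the lowest group and its libraries did not overlap with those of the other groups. With 2 libraries against 2, an exact permutation test cannot go below a two-sided p of 0.333, so shares were not tested. Fewer cells of a type and less RNA per cell cannot be told apart in such bulk libraries. As shares of the authors' library total the order changed, to 0.953% and 0.760% in CPEB1 IP, 0.678% and 0.697% in IgG against 1.02% and 1.33% in input. The Clopper-Pearson intervals of the shares of counts on genes at 95%, which cover counting error only, ran from 1.08% to 1.10% for the lowest library and from 1.76% to 1.81% for the highest.

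The classes did not follow each other. mRNAs held 1.17% and 0.941% of counts on genes in CPEB1 IP, 1.38% and 1.44% in IgG against 1.14% and 1.29% in input. rRNAs held 0.192% and 0.148% in CPEB1 IP, 0.330% and 0.336% in IgG against 0.294% and 0.375% in input, so that the CPEB1 IP libraries lay below the other 4. tRNAs held 37.8 and 44.9 CPM in CPEB1 IP, 42.0 and 54.4 in IgG against 8.87 and 6.64 in input. For tRNAs it was input that stood apart, below both precipitates, while CPEB1 IP and IgG overlapped.

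A few members carried nearly all counts. Their genes lie on the mitochondrial chromosome (M) of mm10, with mt-Nd1 at 2751 to 3707, mt-Nd2 at 3914 to 4951, mt-Co1 at 5328 to 6872, mt-Nd4 at 10167 to 11544, mt-Nd5 at 11742 to 13565 and mt-Cytb at 14145 to 15288 on the plus strand and mt-Nd6 at 13552 to 14070 on the minus strand, each without an intron. mt-Rnr1, mt-Rnr2, mt-Nd1, mt-Nd2, mt-Co1, mt-Nd4, mt-Nd5, mt-Nd6 and mt-Cytb together held 99.2% to 99.7% of the counts on the 37 genes in each library, and the other 28 genes held 0.289% to 0.774%. Among these 28, the counts of mt-Co2, mt-Co3, mt-Atp6, mt-Nd4l and mt-Nd3 are uncertain because of nuclear copies, as described below. The shares in this paragraph are therefore shares of counts and not of the RNA present. mt-Nd1 and mt-Co1, which encode a core subunit of complex I and the catalytic subunit of cytochrome c oxidase, made up 60.5% and 57.9% of the mitochondrial counts in CPEB1 IP, 53.3% and 52.1% in IgG, compared with 41.2% and 41.0% in input. The 3 groups did not overlap. mt-Rnr2, the large rRNA, went the other way, with 12.6% and 11.7% in CPEB1 IP, 17.95% and 17.5% in IgG, beside 19.3% and 21.0% in input. Shares within the 37 genes add up to the whole, so a higher share of some members lowers that of others. Opposite directions of these shares are thus not separate results. mt-Nd2, mt-Nd4, mt-Nd5 and mt-Nd6 summed to 11.02% and 12.7% in CPEB1 IP, 14.9% and 16.04% in IgG, against 17.8% and 19.0% in input, again without overlap. mt-Cytb was the exception, with IgG lowest at 11.8% and 12.3%, CPEB1 IP at 13.7% and 15.2% and input at 20.1% and 17.2%.

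**Figure D1:**
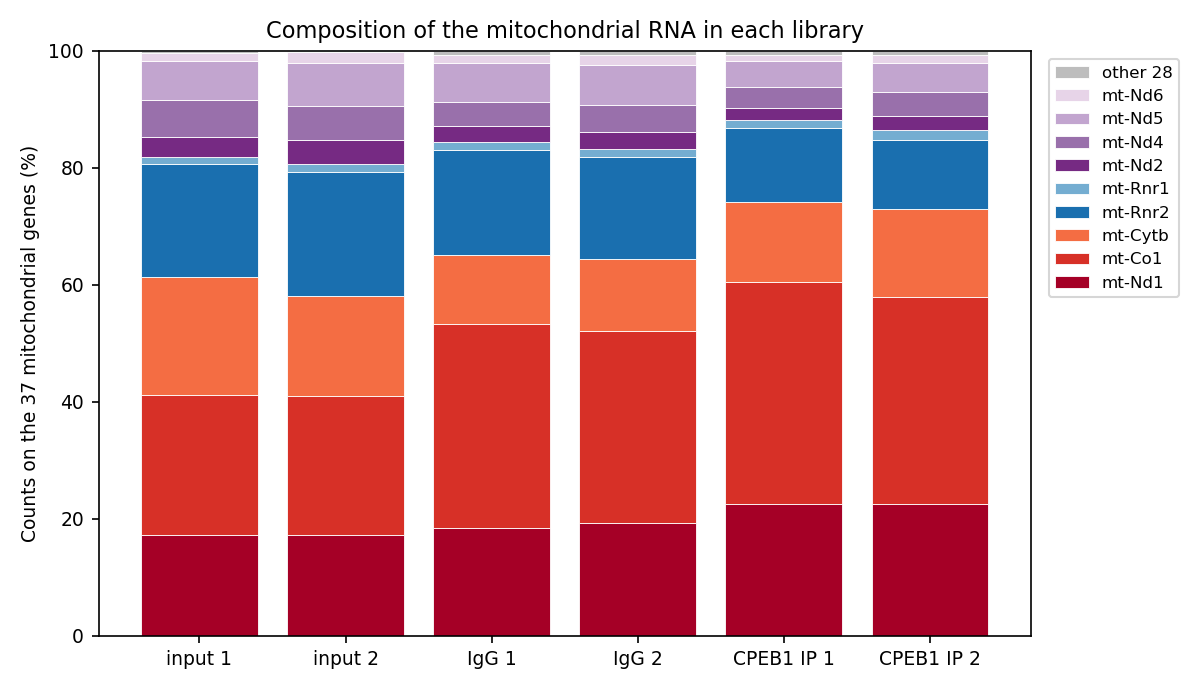
Stacked bars of the share (%) of the counts on the 37 mitochondrial genes held by each of 9 members and by the other 28 together, with 1 bar per library. The red blocks at the base, mt-Nd1 and mt-Co1, reach 41.2% and 41.0% in input, 53.3% and 52.1% in IgG and 60.5% and 57.9% in CPEB1 IP.

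Within a library, genes were compared per length by FPKM (fragments scaled for gene length and library total). mt-Nd1 (mean 2113), mt-Cytb (1892), mt-Co1 (1809) and mt-Rnr2 (1504) led in input, and neighbours in this order overlapped between libraries. mt-Nd4, mt-Nd5, mt-Nd2 and mt-Nd6 followed at means of 513, 455, 418 and 372 FPKM, also overlapping from neighbour to neighbour, and mt-Rnr1, the small rRNA, lay below them at 170. In both precipitates mt-Co1 and mt-Nd1 led, at mean FPKM of 2042 and 2011 in CPEB1 IP, where they overlapped, and 1509 and 1349 in IgG, where they did not. mt-Cytb came next in CPEB1 IP at 1073 FPKM and then mt-Rnr2 at 660, while in IgG mt-Rnr2 at 770 lay above mt-Cytb at 726. Among all 55376 genes, mt-Nd1 ranked between 2 and 7 by FPKM in the 6 libraries, mt-Co1 between 4 and 6 and mt-Cytb between 3 and 12. mt-Rnr2 ranked 7 and 6 in input, 11 and 10 in IgG and 18 and 24 in CPEB1 IP. FPKM is not compared between groups here, since the share of the library total on genes differed. mt-Co1 and mt-Nd4 share part of their sequence with nuclear copies, as described below, which makes their place in these orders uncertain.

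**Figure D2:**
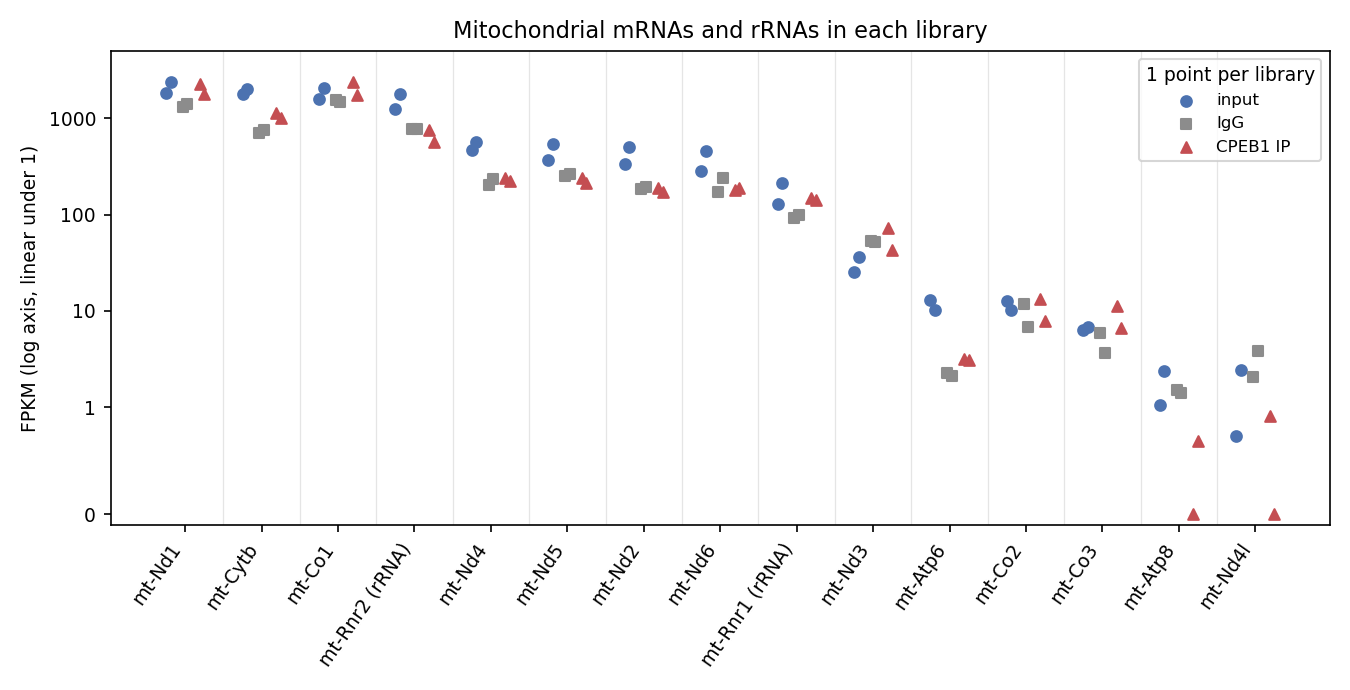
FPKM of the 13 mRNAs and 2 rRNAs (log axis, linear under 1), 1 point per library, ordered by the mean in input. The first 9 genes lie between 91.9 and 2387 FPKM and the last 6 between 0 and 72.8.

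Counts were then compared between groups with edgeR's quasi-likelihood test on all genes that passed its filter on low counts, with TMM scaling and Benjamini-Hochberg adjustment over all genes tested. A gene is called higher or lower at an adjusted p under 0.05, and log2 fold changes are given with their standard errors (SE). The 3 comparisons share libraries and are not independent of each other.

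No mitochondrially encoded RNA was called higher in CPEB1 IP than in IgG, beside 14.7% of the 12124 genes tested, and 7 were called lower, beside 18.7% of all genes. The filter kept 16 of the 37, namely 10 of 13 mRNAs, both rRNAs and 4 of 22 tRNAs. None of the 16 was higher even at an unadjusted p under 0.05 in edgeR, and DESeq2 called 0 higher and 5 lower. The median log2 fold change of the 10 mRNAs was -0.70 and that of all genes -0.01. Scaling to the authors' library total moved the median of all genes to 0.80. It gave 5 members called higher (mt-Rnr1, mt-Nd1, mt-Co1, mt-Cytb and mt-Tp) and 1 lower (mt-Rnr2), beside 7149 higher and 937 lower of all 12124 genes. Relative to that median the values of all members tested except mt-Ti, mt-Tm, mt-Co3 and mt-Tp lay below 0, as in the main fit. New library totals shift every gene by nearly the same amount, so this step returns the main values and gives no separate support for the calls. Relative to the median of all genes, mt-Rnr2 was then at -1.02, mt-Nd5 at -0.98, mt-Nd6 at -0.96, mt-Nd2 at -0.86 and mt-Nd4 at -0.71.

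Against input, 5 members were called higher in CPEB1 IP and 7 lower, of 17 that passed the filter. DESeq2 called none of them higher. The background was 17.0% higher and 15.8% lower over 12171 genes. By class, the calls were 1 mRNA higher and 6 lower of 11, 1 rRNA lower of 2, and 4 tRNAs higher of 4. The tRNAs mt-Ti, mt-Tq and mt-Tm passed the filter through CPEB1 IP alone and mt-Atp6 through input alone, so their calls are no measure of their classes. IgG against input gave 3 members called higher and 3 lower of 15, beside 21.4% higher and 19.4% lower over 12980 genes. Of these members, mt-Tl1 passed the filter through IgG alone and mt-Atp6 through input alone. The lower calls in IgG (mt-Atp6, mt-Nd4 and mt-Cytb) were all lost when either IgG library was left out. Of the higher calls, only that of mt-Nd3 was kept without IgG replicate 2. Without IgG replicate 1 and without IgG replicate 2, the log2 fold changes of mt-Cytb were -0.45 and -0.59, beside -0.50 with both. Those of mt-Nd4 were -0.26 and -0.51, beside -0.36.

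**Figure D3:**
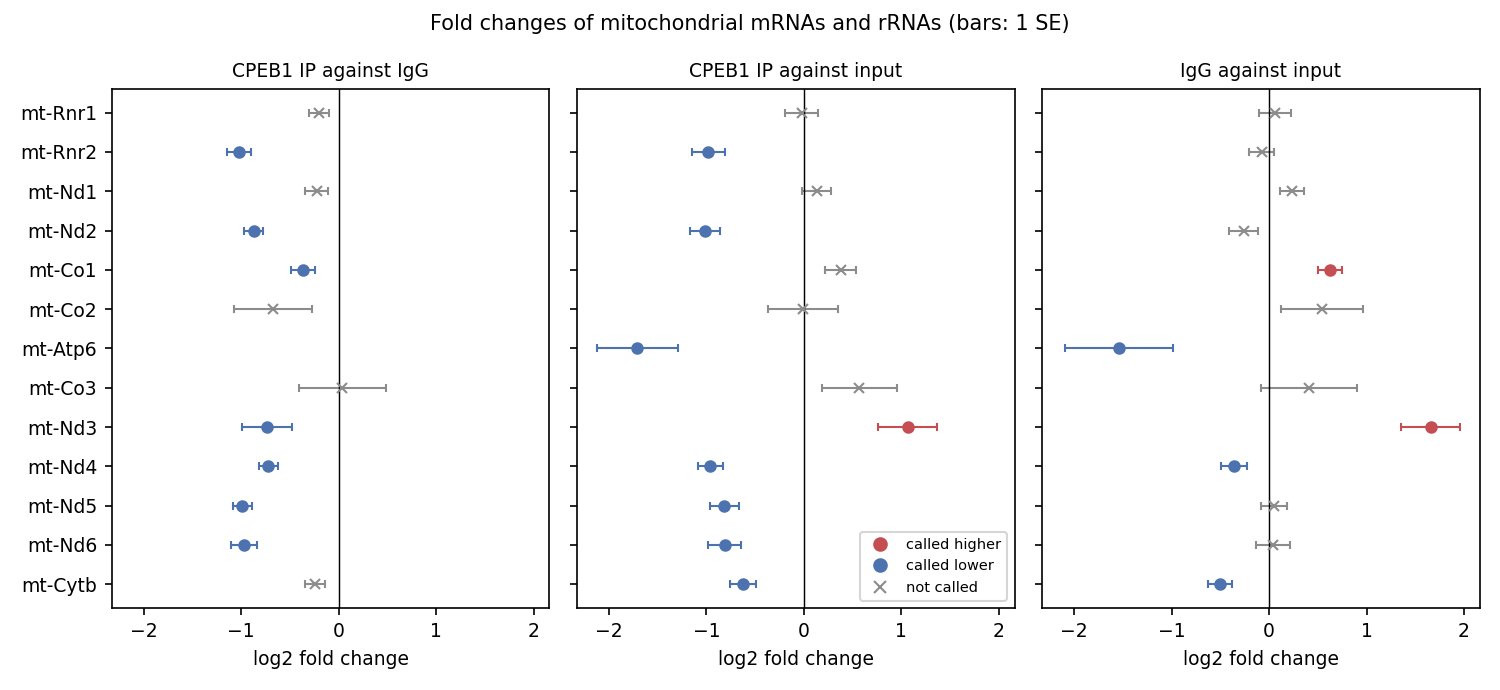
log2 fold changes (points) with 1 SE (bars) of the mRNAs and rRNAs that passed the filter, in 3 comparisons. Circles are calls at an adjusted p under 0.05 (red higher, blue lower) and crosses were not called. In CPEB1 IP against IgG the 7 calls run from -1.02 (mt-Rnr2) to -0.36 (mt-Co1), and scaled to the authors' library total mt-Co1, mt-Nd3 and mt-Nd4 change sign.

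The rRNAs differed from each other. mt-Rnr2 forms the large subunit of the mitochondrial ribosome and lies at positions 1094 to 2675 of the mitochondrial genome. It had 1716 and 1281 CPM in CPEB1 IP, 3076 and 3119 in IgG, compared with 2766 and 3498 in input. Both CPEB1 IP libraries thus lay below the other 4, and IgG lay within the range of input. The log2 fold change was -1.02 (SE 0.12, adjusted p 4.62e-06) against IgG and -0.98 (SE 0.17, adjusted p 0.000871) against input, and -0.08 (SE 0.13, adjusted p 0.656) for IgG against input.

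mt-Rnr1, which forms the small subunit, had 201 and 196 CPM in CPEB1 IP, 222 and 241 in IgG, beside 173 and 253 in input. Input spanned both other groups, and the gene was not called in any comparison (log2 fold changes of -0.20, SE 0.11, against IgG and -0.02, SE 0.17, against input). The ratio of mt-Rnr2 to mt-Rnr1 in FPKM came to 5.16 and 3.94 in CPEB1 IP, 8.37 and 7.83 in IgG against 9.66 and 8.35 in input, so the CPEB1 IP libraries were lowest in this ratio too, which does not depend on scaling between libraries.

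Complex I, the NADH dehydrogenase that feeds electrons into the chain, has 7 mitochondrially encoded subunits. Of their mRNAs, mt-Nd2, mt-Nd4, mt-Nd5 and mt-Nd6 were called lower in CPEB1 IP in both comparisons. mt-Nd2 had 278 and 257 CPM in CPEB1 IP, 478 and 514 in IgG, against 483 and 657 in input, with a log2 fold change of -0.87 (SE 0.10) against IgG and -1.01 (SE 0.16) against input. mt-Nd5 had 618 and 555 in CPEB1 IP, 1144 and 1214 in IgG, compared with 952 and 1231 in input, with -0.99 (SE 0.10) and -0.82 (SE 0.15). In both genes the CPEB1 IP libraries lay below all others.

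mt-Nd4 had 474 and 436 CPM in CPEB1 IP, 701 and 819 in IgG, beside 901 and 970 in input. Its groups formed 3 separate levels, with log2 fold changes of -0.72 (SE 0.10) against IgG, -0.96 (SE 0.13) against input and -0.36 (SE 0.13, adjusted p 0.0290) for IgG against input. mt-Nd6, alone among the mRNAs on the other strand, had 132 and 140 in CPEB1 IP, 227 and 315 in IgG, against 206 and 299 in input. IgG and input overlapped widely, and CPEB1 IP was lower than IgG by a log2 fold change of -0.97 (SE 0.13) and lower than input by -0.81 (SE 0.17). The libraries do not keep strand, so reads of mt-Nd6 cannot be told apart from those of precursor RNA of the opposite strand.

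mt-Nd1 behaved otherwise. It had 3068 and 2452 CPM in CPEB1 IP, 3147 and 3421 in IgG, compared with 2476 and 2861 in input, and was not called in any comparison, with log2 fold changes of -0.23 (SE 0.11, adjusted p 0.137) against IgG and 0.13 (SE 0.15, adjusted p 0.540) against input. In these CPM, CPEB1 IP lay below IgG by little in its first library, and spanned input. After the TMM scaling used for the fold changes, the first CPEB1 IP library (3256) lay above the first IgG library (3191), so the groups overlapped. Without CPEB1_IP replicate 1 the log2 fold change against IgG was -0.40. Without input replicate 2 the log2 fold changes against input were 0.25 for CPEB1 IP and 0.36 for IgG.

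mt-Nd3, a short subunit, was the single mRNA called higher in CPEB1 IP than in input. It had 36.3 and 21.2 CPM in CPEB1 IP, 46.7 and 46.4 in IgG, beside 12.5 and 15.7 in input. Both precipitates lay above input, with log2 fold changes of 1.06 (SE 0.30, adjusted p 0.0166) for CPEB1 IP and 1.66 (SE 0.30, adjusted p 2.55e-05) for IgG, and CPEB1 IP lay below IgG by -0.73 (SE 0.25, adjusted p 0.0300). The first call was lost without CPEB1_IP replicate 1 (log2 fold change 0.65), and DESeq2 did not make it. The call against IgG was lost without CPEB1_IP replicate 2 (-0.28), IgG replicate 1 (-0.70) or IgG replicate 2 (-0.69). mt-Nd4l had between 0 and 4 counts in each library and passed the filter in no comparison.

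Complex III has a single mitochondrially encoded subunit, cytochrome b. Its mRNA, mt-Cytb, had 1866 and 1656 CPM in CPEB1 IP, 2028 and 2196 in IgG, against 2882 and 2856 in input. Input stood apart above both precipitates, with log2 fold changes of -0.62 (SE 0.13, adjusted p 0.00292) for CPEB1 IP and -0.50 (SE 0.12, adjusted p 0.00102) for IgG. CPEB1 IP and IgG differed by -0.24 (SE 0.10, adjusted p 0.0733), which was not called. Without CPEB1_IP replicate 1 that difference was -0.33, and without CPEB1_IP replicate 2 the call against input was lost (-0.55).

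In complex IV, cytochrome c oxidase, mt-Co1 had the most counts of all members. It had 5178 and 3872 CPM in CPEB1 IP, 5984 and 5875 in IgG, compared with 3425 and 3951 in input. IgG lay above both other groups, with log2 fold changes of 0.62 (SE 0.12, adjusted p 5.36e-05) for IgG against input and -0.36 (SE 0.13, adjusted p 0.0293) for CPEB1 IP against IgG, while CPEB1 IP and input differed by 0.38 (SE 0.16, adjusted p 0.0892). The call against IgG was lost when any of 3 libraries was left out: CPEB1_IP replicate 2 (-0.12), IgG replicate 1 (-0.31) or IgG replicate 2 (-0.32). IgG against input was not called without IgG replicate 2 (0.61), and CPEB1 IP against input was at 0.50 without input replicate 2.

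mt-Co2 and mt-Co3, the other core subunits of complex IV, had few counts. mt-Co2 had 33 and 38 counts in CPEB1 IP, 26 and 16 in IgG, beside 40 and 29 in input, and mt-Co3 had 32 and 37, 15 and 10, and 23 and 22. Neither was called in any comparison. Their SE lay between 0.36 and 0.49, so that only large differences could have been detected at this depth.

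Complex V, the ATP synthase, has the subunits Atp6 and Atp8. mt-Atp6 had 8 and 15 counts in CPEB1 IP, 5 and 5 in IgG, against 41 and 29 in input, or 3.12 and 3.04, 3.89 and 3.68, and 12.5 and 8.75 CPM. In both comparisons with input, mt-Atp6 passed the filter through input alone, the group where it is high, so its calls carry that limit. Both precipitates lay below input, with log2 fold changes of -1.71 (SE 0.42, adjusted p 0.00739) for CPEB1 IP and -1.54 (SE 0.55, adjusted p 0.0242) for IgG. Without CPEB1_IP replicate 2 the first was not called (-1.68). The second was lost without IgG replicate 1 (-1.58), IgG replicate 2 (-1.52) or input replicate 1 (-1.26). mt-Atp8, whose end overlaps the start of mt-Atp6, had between 0 and 2 counts in each library and passed the filter in no comparison.

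Of the 6 mRNAs with few counts, all except mt-Atp8 were found to share a property that the choice of genes did not use. Parts of the mitochondrial genome have been copied into nuclear chromosomes, and the annotation lists several such copies as pseudogenes. Each mRNA was cut into all windows of 50 bases and these were looked up in the annotated nuclear transcripts. mt-Co2 had 100% of its windows in a copy, mt-Co3 99.9%, mt-Atp6 99.5%, mt-Nd4l 98.8% and mt-Nd3 98.0%. mt-Nd4 had 62.2% and mt-Co1 51.1%. mt-Nd2 (8.19%) and mt-Nd5 (7.61%) had few, and mt-Nd1, mt-Nd6, mt-Cytb and mt-Atp8 had 0%.

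The longest run of copies lies on chromosome 1 of mm10, between 24611535 and 24616197 on the minus strand, and holds Gm28439, Gm10222, Gm28438, Gm28437, Gm10925, Gm28661 and Gm29216. Over the annotated length of the copy, Gm28661 was identical to mt-Co2 in 681 of 681 bases, Gm10925 to mt-Atp6 in 678 of 678, Gm28437 to mt-Co3 in 783 of 783, Gm10222 to mt-Nd4l in 294 of 294 and Gm28439 to mt-Nd4 in 876 of 876, while Gm28438 matched mt-Nd3 in 344 of 345 and Gm29216 matched mt-Co1 in 486 of 492. The first 30 bases of mt-Co2 and of its copy are letter for letter the same:
mt-Co2: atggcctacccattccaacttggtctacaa
Gm28661: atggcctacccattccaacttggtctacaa
The 5 mRNAs with over 90% of windows in copies had FPKM between 0 and 72.8 in any library, and the 5 with under 10% other than mt-Atp8 had FPKM between 172 and 2387. mt-Co1 and mt-Nd4, which are shared in part, lay between 201 and 2342. mt-Atp8 had no window in an annotated copy and the fewest counts, between 0 and 2. It lies between mt-Co2 and mt-Atp6, and the search covered annotated transcripts only. A copy of mt-Atp8 in the stretch between Gm10925 (up to 24614651) and Gm28661 (from 24614885) would have been missed if not annotated.

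**Figure D4:**
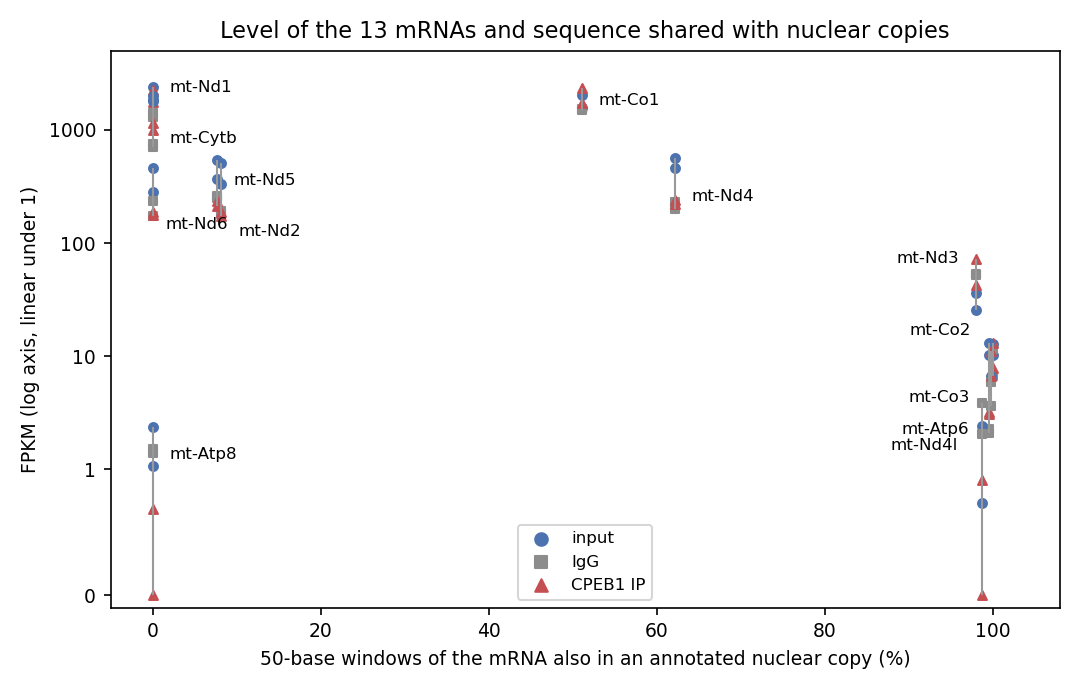
FPKM of the 13 mRNAs in each library (log axis, linear under 1) against the percentage of their 50-base windows that also occur in an annotated nuclear copy, with a grey line from the lowest to the highest library of each gene. The 5 genes at the right lie between 0 and 72.8 FPKM, and of the genes under 10% only mt-Atp8 lies in that range.

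The copies themselves were also low. The 7 copies on chromosome 1 held 87 and 159 counts in CPEB1 IP, 45 and 53 in IgG, compared with 89 and 174 in input, and Gm28661 alone had 15 and 23, 11 and 11, and 18 and 16. The sources used here do not state how reads that map to several places were counted. Whether such reads were left out of the counts of mt-Co2, mt-Co3, mt-Atp6, mt-Nd4l and mt-Nd3 was not tested, and these 5 genes are uncertain as measures of the mitochondrial transcripts. mt-Nd4 and mt-Co1 carry the same limit over the parts that they share with copies, also in their counts and FPKM above. Without the 7 mRNAs that have copies over 10% of their windows, 0 members were called higher and 4 lower in CPEB1 IP than in IgG (mt-Rnr2, mt-Nd2, mt-Nd5 and mt-Nd6).

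The mitochondrial tRNAs carry amino acids to the mitochondrial ribosome and also mark the cutting sites of the precursor. In these libraries they had 97 and 222 counts in CPEB1 IP, 54 and 74 in IgG, beside 29 and 22 in input, over all 22 genes. In CPEB1 IP 13 and 19 of the 22 had a count, in IgG 13 and 11, and in input 6 and 6. The summed CPM of the 22 tRNAs were 5.49-fold higher in CPEB1 IP than in input (95% interval 4.07 to 7.53). They were 6.25-fold higher in IgG than in input (4.49 to 8.83), while CPEB1 IP was 0.878-fold of IgG (0.713 to 1.09). These intervals cover counting error only.

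mt-Tp, the tRNA for proline, had the most counts, with 12.5 and 12.7 CPM in CPEB1 IP, 11.7 and 11.8 in IgG, against 5.81 and 4.53 in input. It was called higher in CPEB1 IP than in input (log2 fold change 1.36, SE 0.35, adjusted p 0.0103), and IgG against input was not called (1.12, SE 0.49, adjusted p 0.0671). Without CPEB1_IP replicate 2 the call against input was lost (1.34), and DESeq2 did not make it.

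mt-Ti (isoleucine), mt-Tq (glutamine) and mt-Tm (methionine) lie side by side between mt-Nd1 and mt-Nd2, at positions 3706 to 3913, with mt-Tq on the other strand. mt-Tm had 16 and 28 counts in CPEB1 IP, 3 and 10 in IgG, compared with 0 and 0 in input. Taking 3 counts as the floor of the input group, it was at least 12.9-fold higher in CPEB1 IP and at least 10.8-fold higher in IgG than in input. These bounds take the counts of the precipitates as observed, without their counting error. mt-Ti had 11 and 26 counts in CPEB1 IP, 6 and 7 in IgG, beside 1 and 0 in input, a ratio of 32.5 (5.48 to 1316) for CPEB1 IP and 32.4 (4.86 to 1376) for IgG. mt-Tq had 11 and 21, 2 and 5, and 1 and 2, a ratio of 9.36 (2.93 to 47.8) for CPEB1 IP and 5.81 (1.33 to 34.8) for IgG. The intervals are wide, and no order among the 3 tRNAs is read from these ratios and bounds.

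These 3 tRNAs were called higher in CPEB1 IP than in input in edgeR (adjusted p of 0.00105 for mt-Ti, 0.00323 for mt-Tq and 0.000351 for mt-Tm), and DESeq2 gave none of the 3 an adjusted p in that comparison. With at most 2 counts in an input library, they passed the filter through CPEB1 IP alone, so that the count of tRNAs called is no measure of the class. mt-Ti and mt-Tm also passed the filter against IgG, where their log2 fold changes were -0.00 (SE 0.57) and 0.28 (SE 0.53), neither called. In IgG against input they did not pass the filter. The counting intervals of the ratio of CPEB1 IP to IgG ran from 0.521 to 2.06 for mt-Ti and from 0.631 to 2.41 for mt-Tm, and a difference within them was not detectable at this depth.

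mt-Tl1, a tRNA for leucine between mt-Rnr2 and mt-Nd1, had 5 and 24 counts in CPEB1 IP, 7 and 8 in IgG, against 3 and 2 in input, and was called higher in IgG than in input (log2 fold change 2.76, SE 0.68, adjusted p 0.00121). It passed the filter through IgG alone, DESeq2 did not call it (adjusted p 0.218), and with any of the 4 libraries left out it was not tested. mt-Tv (valine), between the 2 rRNAs, had 6 and 11, 5 and 8, and 0 and 0 counts, at least 4.97-fold higher in CPEB1 IP and at least 10.8-fold higher in IgG than in input. mt-Tr (arginine) had 4 and 6, 3 and 7, and 0 and 0 counts, at least 2.92-fold higher in CPEB1 IP and at least 8.30-fold higher in IgG than in input. The bounds for mt-Tv and mt-Tr use the same floor and also leave out the counting error of the precipitates. The remaining 15 tRNAs had at most 11 counts in any library, and mt-Td and mt-Tk had 0 in all 6.

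The tRNAs with the most counts are printed here because their differences rest on these few short sequences, with the anticodon in capitals, from GENCODE M21:
mt-Tm: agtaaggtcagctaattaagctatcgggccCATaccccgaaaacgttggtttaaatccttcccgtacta
mt-Ti: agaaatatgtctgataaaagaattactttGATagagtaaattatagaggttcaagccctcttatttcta
mt-Tq: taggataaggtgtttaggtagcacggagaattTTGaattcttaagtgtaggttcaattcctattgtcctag
mt-Tp: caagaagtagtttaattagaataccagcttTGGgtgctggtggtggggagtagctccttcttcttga
mt-Tl1: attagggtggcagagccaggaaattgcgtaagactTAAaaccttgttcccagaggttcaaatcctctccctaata
mt-Tv: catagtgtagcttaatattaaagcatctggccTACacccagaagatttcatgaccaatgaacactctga
None of the 22 tRNAs had a window of 50 bases in an annotated nuclear copy. Whether a count came from a free tRNA or from precursor RNA that runs into the neighbouring gene was not tested.

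**Figure D5:**
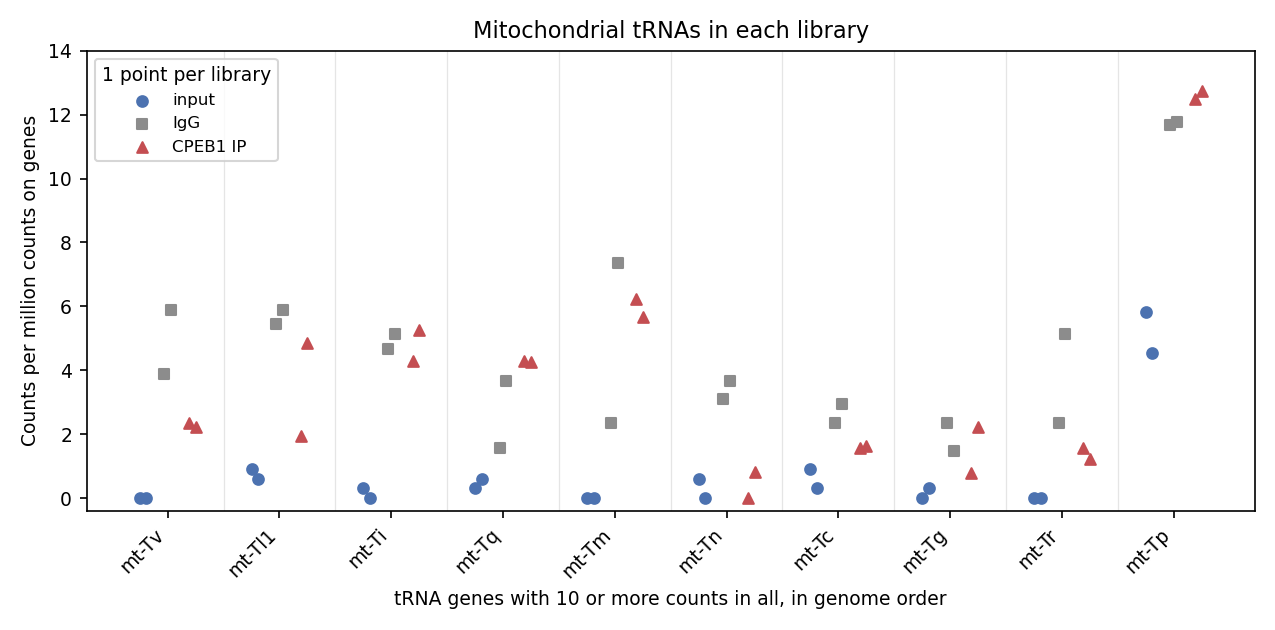
CPM (of the counts on genes) of the 10 tRNAs with at least 10 counts over the 6 libraries, in genome order, 1 point per library. Input lies at or below 0.917 for every tRNA shown except mt-Tp, at 5.81 and 4.53, and the precipitates reach 12.7.

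Over the 9 members with the most counts, the log2 fold change of CPEB1 IP against input had a Spearman correlation of 0.68 with GC content, of -0.25 with length and of -0.55 with the share of A. Against IgG these were 0.57, -0.52 and -0.13. The 9 genes share the same libraries and a narrow range of base composition, and the values are a description only.

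Nuclear genes encode the other subunits of the same complexes. Of 73 nuclear-encoded subunits of complexes I, III, IV and V, all of which passed the filter, 34 were called higher and 0 lower in CPEB1 IP than in IgG, with a median log2 fold change of 0.37 (72 higher and 0 lower when scaled to the authors' library total), beside 0 higher and 6 lower of the 10 mitochondrial mRNAs. Examples are Ndufv1, a core subunit of complex I (0.97, SE 0.13), Uqcrc1 of complex III (0.94, SE 0.11) and Atp5a1 of complex V (0.80, SE 0.10). Complex by complex, 14 of 36 were called higher for complex I, 7 of 9 for complex III, 4 of 11 for complex IV and 9 of 17 for complex V. Against input the nuclear subunits gave 9 higher and 4 lower with a median of 0.15 (5 higher, 6 lower and -0.05 when scaled to the authors' library total), and in IgG against input 3 higher and 23 lower with a median of -0.34 (0 higher, 68 lower and -1.22 when scaled to the authors' library total). Over all genes tested the shares called were 14.7% higher and 18.7% lower in CPEB1 IP against IgG, 17.0% and 15.8% in CPEB1 IP against input, and 21.4% and 19.4% in IgG against input. Scaled to the authors' library total, the genes called in the same order were 7149 higher and 937 lower of 12124, 1235 and 2744 of 12171, and 1108 and 7180 of 12980. Uqcrc1, for example, was at -1.27 (SE 0.15) in IgG against input and at -0.21 (SE 0.13) in CPEB1 IP against input. The difference between nuclear and mitochondrial subunits was not tested.

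The nuclear-encoded machinery of mitochondrial transcription, RNA processing, polyadenylation and decay was listed as 36 genes, of which 35 are in the tables. The list also holds the mitochondrial DNA replication factors Twnk, Polg, Polg2 and Ssbp1, so its counts and medians mix both. Against IgG, 28 were tested and 3 were called higher in CPEB1 IP, beside 14.7% of all genes: Elac2, which cuts the 3′ ends of tRNAs from the precursor (0.52, SE 0.17), Hsd17b10, a subunit of mitochondrial RNase P (0.76, SE 0.17), and Tbrg4, a FASTK family protein (0.45, SE 0.11). Polg2, a subunit of the mitochondrial DNA polymerase, was called lower (-1.34, SE 0.33), beside 18.7% of all genes. The median of the 28 was -0.01, as over all genes. Against input 9 were called higher and 3 lower of 30 with a median of 0.22, beside 17.0% higher and 15.8% lower over all genes. Twnk, the mitochondrial DNA helicase, was highest (1.40, SE 0.27) and Fastk lowest (-1.16, SE 0.23). IgG against input gave 4 higher and 3 lower of 31 with a median of 0.25, beside 21.4% higher and 19.4% lower over all genes. Twnk was among the higher (1.38, SE 0.37) and Fastk among the lower (-1.25, SE 0.28).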

How the data were processed

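RIP-seq libraries of fiSCs (2 each of CPEB1 IP, IgG and input) were grouped by the sample labels. Per the methods and the submitters' processing notes, reads were mapped to mm10 with HISAT and assigned to genes by featureCounts. The authors deposited raw counts and FPKM per gene. The annotation release, strand setting and treatment of multi-mapped reads are not given in the sources used here. Library totals were recovered from count, FPKM and gene length. CPEB1 IP and input share a table, and IgG has its own.

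Counts (1284716 to 4941653 on genes for each library) were analysed with edgeR 4.0.16 in R 4.3.3 (filterByExpr with a minimum count of 10, TMM, quasi-likelihood test, Benjamini-Hochberg at 0.05), fitting 2 groups at a time. The SE is the size of the log2 fold change divided by the square root of F. Alternatives were DESeq2 1.42.0, other scalings, no filter, a replicate block, 1 fit of all libraries and leaving out each library. The fit was tested on simulated data. FPKM compares genes within a library only. Copies were searched among GENCODE M21 transcripts, not in the genome. Python 3.11.15 with pandas 2.3.3 and scipy 1.17.1 was used for the rest. All members were named, mRNAs and rRNAs singly and tRNAs by counts, and copies only where they bear on a member. Members, lists and tests were chosen with earlier results of these data known, and the split by nuclear copies was chosen after seeing the data.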

Additional observations from a re-analysis of the deposited data

How the results depend on the processing

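Of 563 log2 fold changes recomputed under the alternatives, 454 kept direction and side of the threshold, 32 lost a call, 22 gained one and 55 changed direction. These counts include the fits with 1 library left in a group, whose calls hold no spread within that group. Depth limited the tRNAs, mt-Co2, mt-Co3 and mt-Atp6, which had few counts. Scaled to the authors' library total, the median of all genes was 0.80 in CPEB1 IP against IgG, -0.19 in CPEB1 IP against input and -0.85 in IgG against input, and the shares of mitochondrially encoded RNAs averaged 0.856%, 0.687% and 1.17% in CPEB1 IP, IgG and input. The calls were then 5 higher and 1 lower in CPEB1 IP against IgG and 9 lower in IgG against input. Over all genes, 7149 of 12124 were then called higher in CPEB1 IP against IgG, and 7180 of 12980 lower in IgG against input. Values that changed direction with this scaling were, against IgG, mt-Rnr1 at 0.60, mt-Tl1 at 0.21, mt-Nd1 at 0.57, mt-Ti at 0.80, mt-Co1 at 0.44, mt-Co2 at 0.13, mt-Nd3 at 0.0736, mt-Nd4 at 0.0841 and mt-Cytb at 0.56, in CPEB1 IP against input mt-Nd1 at -0.0718, and in IgG against input mt-Rnr1 at -0.83, mt-Nd1 at -0.65, mt-Co1 at -0.26, mt-Co2 at -0.32, mt-Co3 at -0.46, mt-Nd5 at -0.84 and mt-Nd6 at -0.86. DESeq2, run without that filter, moved the median of all genes to -1.07, 0.53 and 2.13 in the same order of comparisons. It called 0 members higher in CPEB1 IP against input, where mt-Ti, mt-Tq and mt-Tm had no adjusted p, and gave mt-Rnr1 at 0.0812, mt-Nd1 at 0.0535, mt-Ti at 0.27 and mt-Cytb at 0.0414 against IgG, mt-Co2 at 0.0039 in CPEB1 IP against input, and mt-Rnr1 at -0.0865, mt-Nd5 at -0.0930 and mt-Nd6 at -0.11 in IgG against input. In CPEB1 IP against IgG, mt-Co1 (-0.08, adjusted p 0.750) and mt-Nd3 (-0.42, adjusted p 0.354) were not called by DESeq2. With no filter on low counts, edgeR called 9 higher in CPEB1 IP against input and 7 higher and 5 lower in IgG against input, and gave mt-Rnr1 at 0.19, mt-Nd1 at 0.16, mt-Ti at 0.40, mt-Co1 at 0.0151 and mt-Cytb at 0.15 against IgG, and mt-Rnr1 at -0.21, mt-Nd1 at -0.0326, mt-Nd5 at -0.22 and mt-Nd6 at -0.23 in IgG against input. With total counts and no TMM, 5 were higher in IgG against input, mt-Rnr2 was at 0.0294 there, and mt-Co3 was at -0.0247 in CPEB1 IP against IgG. One fit of all 6 libraries called 7 higher in IgG against input and put mt-Ti at 0.0590 against IgG, and RLE size factors put it at 0.0117. Members with at most 10% of windows in a nuclear copy gave 4 lower in CPEB1 IP against IgG, and 1 higher and 1 lower in IgG against input, since fewer genes were counted. By summed FPKM, mt-Nd1 and mt-Co1 held 55.7%, 50.5% and 41.7% of the mitochondrial RNAs in CPEB1 IP, IgG and input, and mt-Rnr2 held 9.06%, 13.6% and 15.9%. Leaving out 1 library at a time gave 5 to 9 lower in CPEB1 IP against IgG, 2 to 7 higher and 5 to 8 lower in CPEB1 IP against input, and 1 to 6 higher and 0 to 4 lower in IgG against input. The log2 fold changes that changed direction then ranged, against IgG, from -0.0250 to 0.13 for mt-Ti, -0.26 to 1.39 for mt-Tm and -0.31 to 0.47 for mt-Co3, in CPEB1 IP against input from -0.32 to 0.29 for mt-Rnr1, -0.0621 to 0.27 for mt-Nd1 and -0.38 to 0.37 for mt-Co2, and in IgG against input from -0.19 to 0.37 for mt-Rnr1, -0.24 to 0.11 for mt-Rnr2, -0.13 to 0.26 for mt-Nd5 and -0.25 to 0.34 for mt-Nd6. Per the paper's methods, FPKM of IP were set against those of IgG within each experiment, and the main fit here did not pair them. The labels do not say whether the same replicate number marks the same experiment. The deviations of libraries with the same number correlated at -0.0107, -0.0206 and 0.0324 over 14276 genes. The replicate block gave 0 higher and 7 lower, 5 higher and 7 lower, and 3 higher and 3 lower in the 3 comparisons, as without it, and mt-Co2 at 0.0263 in CPEB1 IP against input. Except where an alternative tested fewer genes or samples, the cause of a change was not tested.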
